A study of Mus musculus with 10 samples.

Results

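MAP kinases are the last kinases of 3-step relays that carry signals from the cell surface and from stress to the nucleus. The 8 genes described here were chosen by symbol from the deposited gene table, on their levels in fibrosis against control B cells, 8 of the 54532 genes listed. They are Mapk3 (ERK1), Mapk7 (ERK5), Mapk8 (JNK1), Mapk9 (JNK2) and the p38 genes Mapk14 (p38 alpha), Mapk11 (p38 beta), Mapk12 (p38 gamma) and Mapk13 (p38 delta). No symbol was repeated, and all 8 were among the 14283 genes that had enough counts to be tested. Because the choice used this contrast, the values of the members below are a description and carry no test of their own.

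The RNA was that of mouse splenic B cells. In the fibrosis group, with 5 libraries, liver fibrosis had been induced by injecting carbon tetrachloride, a liver toxin, into the peritoneum for 4 weeks. The control group, also with 5 libraries, was wildtype. The sources used here do not give the strain, age or sex of the mice, whether controls received a vehicle, how the B cells were isolated, or whether each library came from its own animal. P-values therefore measure only how much these libraries vary, which may be technical. The comparison addresses how RNA of splenic B cell samples differs between mice with liver fibrosis after carbon tetrachloride and wildtype controls. Effects of the toxin and of the fibrosis cannot be told apart here.

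Each MAP kinase is switched on by a MAP kinase kinase, which phosphorylates a threonine and a tyrosine in the activation loop, and is switched off by dual-specificity phosphatases. ERK kinases respond mainly to growth and antigen receptor signals, while JNK and p38 kinases respond mainly to stress and inflammatory cytokines. In B cells, antigen receptor, CD40 and Toll-like receptor signals engage all these branches. p38 alpha is found in most tissues, whereas p38 gamma is best known from skeletal muscle.

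The residue between this threonine and tyrosine marks the branch, so the activation loops are shown here, with the codons of the threonine, the residue after it and the tyrosine in capitals. Each stretch of 33 bases lies in a coding exon and was read 5′ to 3′ from the GENCODE vM21 transcripts of the gene.
Mapk3: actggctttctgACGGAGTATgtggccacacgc
Mapk7: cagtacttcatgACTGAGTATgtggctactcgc
Mapk8: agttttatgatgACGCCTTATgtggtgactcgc
Mapk9: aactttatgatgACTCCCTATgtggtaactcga
Mapk14: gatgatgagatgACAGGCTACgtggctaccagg
Mapk11: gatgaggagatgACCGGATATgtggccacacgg
Mapk12: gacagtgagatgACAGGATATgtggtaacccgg
Mapk13: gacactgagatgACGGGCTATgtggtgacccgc
The middle codon is that of glutamate in the ERK genes, of proline in the JNK genes and of glycine in the p38 genes. No 2 of these stretches were the same. Of the 50-base words in the annotated transcripts, none (0) in Mapk9, Mapk11, Mapk13 or Mapk14 and 2.1% in Mapk12 also occurred in another gene. The share was 0.04% in Mapk3, 0.8% in Mapk7 and 0.11% in Mapk8. The shared words of Mapk12 lay in 761 other genes, and their part in its counts was not tested.

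The libraries held between 13439100 and 17954551 counts. All 12 B cell markers were present in every library, with Cd79a between 1509 and 2403 CPM (CPM, counts scaled to a common library size by TMM). Fibrosis libraries 4 and 5 stood apart. They had the highest summed CPM of the platelet, neutrophil, macrophage, dendritic cell, T cell and NK cell markers. Their summed CPM of the B cell markers was the lowest. Values without them, from a fit added after the data were seen, are given beside the calls of named genes and the counts of single lists that they alter.

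Across the 8 members, Mapk12 and Mapk11 were higher in fibrosis, and no member was lower. This is 2 of 8 genes (25%) called, with edgeR's quasi-likelihood test and an adjusted p under 0.05 as the rule. Over all tested genes 35.7% were called, 18.6% as higher and 17.2% as lower. In 2 of the 8, all libraries of one group lay above all of the other, as in 25.4% of all tested genes. The median log2 fold change, fibrosis minus control, was 0.10 over the members and 0.05 over all tested genes.

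**Figure D1:**
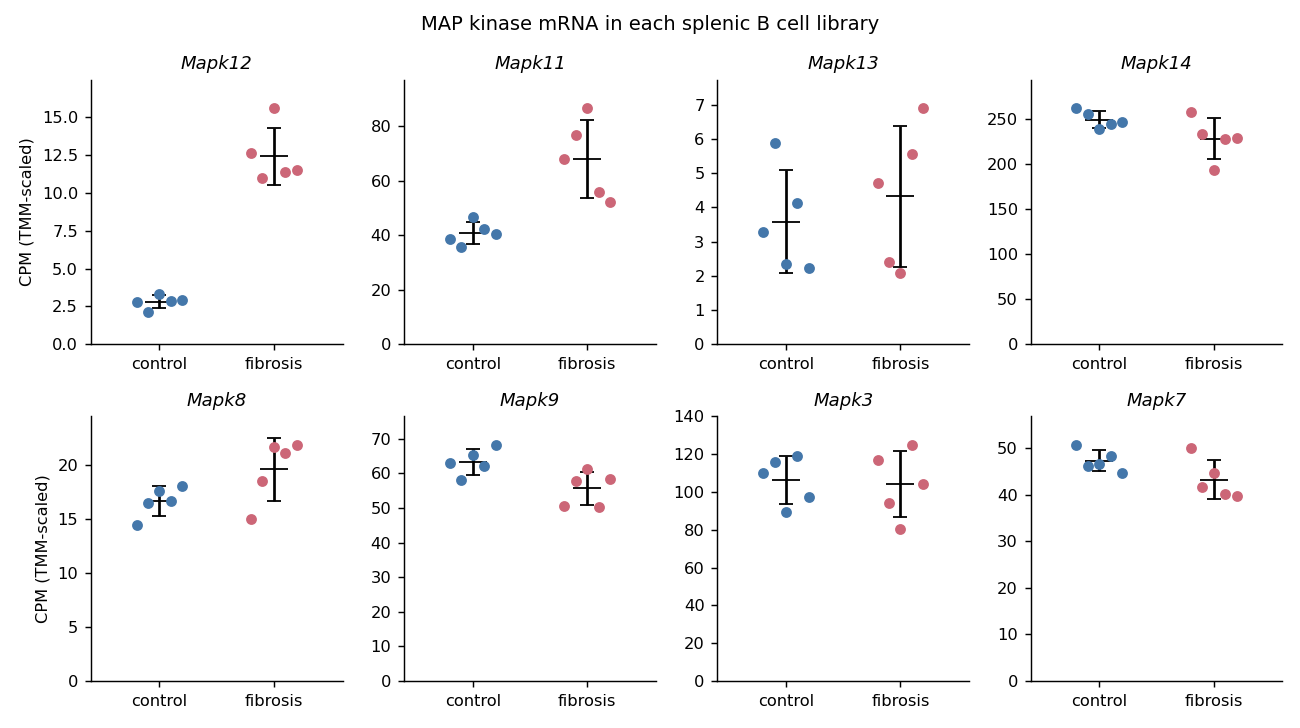
Level of each MAP kinase gene in each library, in CPM after TMM scaling, with control libraries in blue and fibrosis libraries in red (points in order of replicate number; bars are mean ± SD, n = 5). Mapk12 (11.0 to 15.6 against 2.15 to 3.35 CPM) and Mapk11 (52.2 to 86.6 against 35.6 to 46.5 CPM) separate the groups, and the other 6 genes overlap.

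Mapk12 encodes p38 gamma (ENSMUSG00000022610, chromosome 15, 89130584 to 89140703, minus strand, GRCm38). Fibrosis libraries 1 to 5 held 206, 178, 260, 144 and 176 counts of it, or 12.6, 11.0, 15.6, 11.4 and 11.5 CPM. Control libraries 1 to 5 held 51, 39, 63, 51 and 48 counts, or 2.79, 2.15, 3.35, 2.88 and 2.91 CPM. The lowest fibrosis library lay far above the highest control library, and within both groups replicate 3 was highest and replicate 2 lowest. The fibrosis mean was 12.4 ± 1.86 CPM and the control mean 2.82 ± 0.433 CPM (SD, n = 5 libraries each), a log2 fold change of 2.14 ± 0.16 (SE), or 4.4-fold. Among all tested genes, 26 had a larger log2 increase. Without fibrosis libraries 4 and 5 the log2 fold change was 2.22 ± 0.17.

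Mapk11 encodes p38 beta, the closest relative of p38 alpha (ENSMUSG00000053137, chromosome 15, 89142486 to 89149628, minus strand). Its levels in fibrosis libraries 1 to 5 were 68.0, 76.7, 86.6, 56.0 and 52.2 CPM, and in control libraries 1 to 5 they were 38.7, 35.6, 46.5, 42.1 and 40.6 CPM. The groups did not overlap, and fibrosis 4 and 5 lay nearest to the control libraries. Means were 67.9 ± 14.3 and 40.7 ± 4.06 CPM, a log2 fold change of 0.74 ± 0.13, or 1.67-fold. For Mapk11, 1178 tested genes had a larger increase. Without fibrosis 4 and 5 the log2 fold change was 0.93 ± 0.10.

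Mapk14, which encodes p38 alpha, lies on chromosome 17 (28691329 to 28748406, plus strand). It was at 258, 233, 193, 228 and 229 CPM in fibrosis libraries 1 to 5 and at 262, 255, 239, 244 and 246 CPM in control libraries 1 to 5. Apart from fibrosis 1, every fibrosis library lay below the lowest control library, and fibrosis 3, the library with the most Mapk11 and Mapk12, had the least Mapk14. The log2 fold change was -0.13 ± 0.09 and was not called. With library size alone as the scaling it was -0.24 ± 0.08 and was called lower, in 1 of 20 alternatives.

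Mapk13, which encodes p38 delta, lies 20890 bases beyond Mapk14 on the same strand (28769297 to 28780233). Its levels were 4.70, 2.40, 2.09, 5.55 and 6.90 CPM in fibrosis libraries 1 to 5 and 3.28, 5.89, 2.34, 4.13 and 2.24 CPM in control libraries 1 to 5. The spread within each group exceeded the difference between them, and the log2 fold change was 0.27 ± 0.36. Without fibrosis 4 and 5 it was -0.21 ± 0.36.

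The JNK genes, stress kinases that phosphorylate Jun, had differences of opposite sign, and neither was called. Mapk8 (chromosome 14, 33377898 to 33447158, minus strand) was at 15, 18.5, 21.7, 21.1 and 21.9 CPM in fibrosis libraries 1 to 5 and at 14.5, 16.5, 17.6, 16.7 and 18.1 CPM in control libraries 1 to 5. Fibrosis 2 to 5 lay above every control library and fibrosis 1 lay among them, giving a log2 fold change of 0.24 ± 0.12. Leaving out fibrosis 1 gave 0.32 ± 0.10 and a call, in 1 of 20 alternatives.

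Mapk9 (chromosome 11, 49846751 to 49886421, plus strand) was at 50.7, 57.7, 61.2, 50.4 and 58.4 CPM in fibrosis libraries 1 to 5 and at 63.1, 58.0, 65.2, 62.2 and 68.3 CPM in control libraries 1 to 5. Fibrosis 1, 2 and 4 lay below every control library, and the log2 fold change was -0.19 ± 0.08. It was called lower in 2 of 20 alternatives, with library size alone (-0.29 ± 0.09) and without fibrosis 3 (-0.24 ± 0.08).

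Neither ERK gene among the members was called. Mapk3, whose product ERK1 acts below antigen receptors (chromosome 7, 126759601 to 126765819, plus strand), was at 117, 94.4, 80.6, 125 and 104 CPM in fibrosis libraries 1 to 5 and at 110, 116, 89.3, 119 and 97.6 CPM in control libraries 1 to 5. The ranges overlapped almost wholly, with fibrosis 3 lowest and fibrosis 4 highest, and the log2 fold change was -0.03 ± 0.12. Mapk7, whose kinase carries a long tail beyond its kinase domain (chromosome 11, 61488812 to 61494406, minus strand), was at 49.9, 41.6, 44.7, 40.1 and 39.8 CPM in fibrosis libraries 1 to 5 and at 50.7, 46.2, 46.6, 48.3 and 44.7 CPM in control libraries 1 to 5. Fibrosis 1 lay among the controls and the other fibrosis libraries at or below the lowest of them, with a log2 fold change of -0.13 ± 0.08.

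Levels of different genes were compared on the deposited FPKM, which divides counts by the listed exon length and the library total, by the median over the 5 libraries of a group. In control the order was Mapk14 (56.3 FPKM), Mapk3 (48.9), Mapk11 (14.1), Mapk7 (10.5), Mapk9 (9.33), Mapk8 (1.46), Mapk13 (1.04) and Mapk12 (0.759). The ranges of the last 3 overlapped from one to the next, and those of the others did not. In fibrosis the order was Mapk14 (51.4 FPKM), Mapk3 (43.3), Mapk11 (24.1), Mapk7 (9.41), Mapk9 (8.06), Mapk12 (2.96), Mapk8 (1.80) and Mapk13 (1.53). Neighbours whose ranges overlapped there were Mapk14 and Mapk3, Mapk7 and Mapk9, and Mapk8 and Mapk13. Mapk12 was at rank 8 in control and at rank 6 in fibrosis, where its range (2.82 to 4.04 FPKM) lay apart from that of both neighbours.

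The makeup of the p38 sum differed between the groups, while the sums overlapped. The 4 p38 genes together reached 79.2 ± 7.02 FPKM in fibrosis and 72.8 ± 1.52 FPKM in control, and these ranges overlapped (71.0 to 89.1 and 71.3 to 75.2 FPKM). Mapk14 made up 65.0 ± 5.44% of that sum in fibrosis and 78.1 ± 1.85% in control. Mapk11 made up 29.2 ± 5.74% and 19.4 ± 2.09%, and Mapk12 4.07 ± 0.656% and 1.02 ± 0.162%. For these 3 genes no fibrosis library overlapped a control library. Shares of the same sum, here and for the JNK genes below, are tied together, so a higher share of 1 gene lowers the others. The level of Mapk14 itself overlapped between the groups and was not called (-0.13 ± 0.09). Mapk13 held 1.73 ± 0.886% and 1.55 ± 0.65%, which overlapped.

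**Figure D2:**
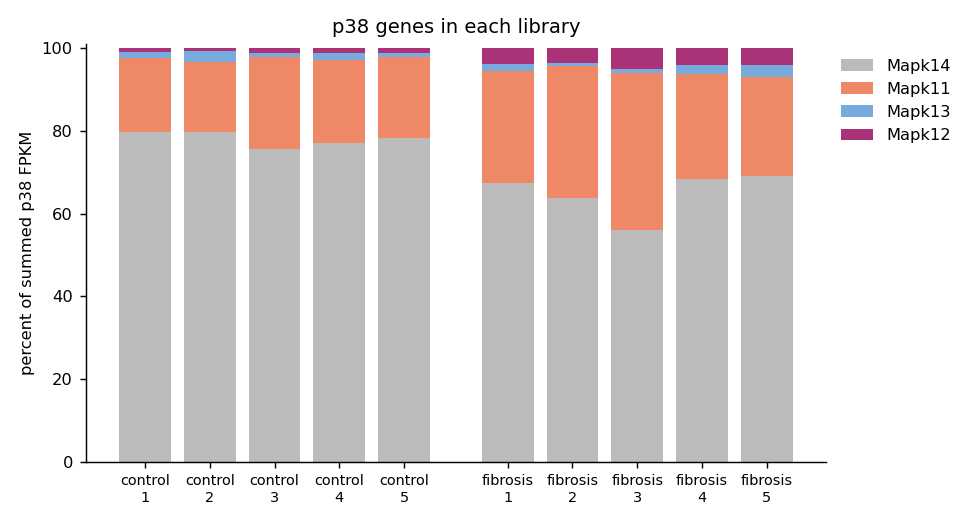
Share of each p38 gene in the summed FPKM of the 4 p38 genes, in percent, with 1 bar per library. Mapk14 holds 75.5 to 79.8% in the control libraries and 56 to 69.2% in the fibrosis libraries, and Mapk12 holds 0.772 to 1.22% and 3.45 to 5.18%.

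The difference was larger for Mapk12 than for Mapk11, its neighbour. The FPKM of Mapk12 was 14.1 ± 2.18% of that of Mapk11 in fibrosis (10.8 to 16.6%) and 5.23 ± 0.382% in control (4.57 to 5.47%). Among the JNK genes, Mapk8 held 17.3 ± 1.91% of the summed FPKM in fibrosis (14.9 to 19.9%) and 13.5 ± 0.9% in control (12 to 14.4%), with no overlap, while the JNK sum overlapped (9.76 ± 0.733 and 10.8 ± 0.613 FPKM). These levels depend on the length used. The listed length counts every annotated exon, which for Mapk12 is 3805 bases against 1808 in its protein-coding transcripts, and with the latter lengths Mapk12 made up 7.61% of the p38 sum in fibrosis and 1.98% in control.

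Mapk12 and Mapk11 are neighbours, with 1782 bases between them. Both are read from the minus strand, so that Mapk11 ends just before Mapk12 begins. The 250 bases before the RefSeq start of each gene (GRCm38.p6, minus strand, 5′ to 3′) are shown because the genes lie side by side and are the members with higher levels in fibrosis. Capitals mark GC boxes (GGGCGG or its complement CCGCCC) and, in Mapk12, an E-box (CACGTG).
Mapk12, chr15:89140704-89140953: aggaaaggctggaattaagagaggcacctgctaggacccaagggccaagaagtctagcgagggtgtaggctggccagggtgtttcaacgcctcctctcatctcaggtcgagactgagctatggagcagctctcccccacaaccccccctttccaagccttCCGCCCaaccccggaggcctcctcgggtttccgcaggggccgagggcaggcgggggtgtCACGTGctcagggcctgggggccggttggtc
Mapk11, chr15:89149607-89149856: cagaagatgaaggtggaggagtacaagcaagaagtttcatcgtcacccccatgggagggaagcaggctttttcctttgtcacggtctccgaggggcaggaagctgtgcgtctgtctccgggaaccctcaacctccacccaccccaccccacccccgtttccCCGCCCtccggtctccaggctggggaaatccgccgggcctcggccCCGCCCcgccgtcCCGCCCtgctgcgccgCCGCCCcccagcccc
Mapk12 held 1 GC box, 1 E-box and 11 CpG pairs, and Mapk11 held 4 GC boxes and 18 CpG pairs. Of 32851 RefSeq promoters of the same length, 32.7% held a GC box and 6.0% this E-box on either strand, and the median had 6 CpG pairs. Neither stretch held an AP-1 site (TGANTCA, in 6.7% of promoters), a cAMP response element (TGACGTCA, 1.5%), an ETS core (CCGGAAG, 6.9%), a CCAAT box (33.8%) or a TATA box (TATAAA, 12.4%), each searched on both strands. GC boxes also lay in the same stretch of Mapk8 (7), Mapk13 (4), Mapk7 (2), Mapk9 (1) and Mapk14 (1), members that were not called. Their CpG pairs numbered 36, 25, 27, 14 and 30. GC boxes and CpG pairs are thus not particular to Mapk12 and Mapk11. A match is a run of letters and not a shown binding site.

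Within 80 kb of Mapk12, 10 genes were tested. Hdac10, a histone deacetylase gene 1883 bases past the end of Mapk12, had a log2 fold change of 0.10 ± 0.11 and overlapping groups (80.9 and 75.3 CPM on average). Without fibrosis 4 and 5 it was 0.26 ± 0.08 and was called (adjusted p = 0.0276 by edgeR). Plxnb2, a semaphorin receptor gene on the far side of Mapk11, had -0.33 ± 0.17 and was not called. It was called lower in 4 of 20 alternatives, at -0.51 ± 0.17 without fibrosis 4 and 5, -0.44 with library size only, -0.38 without a filter and -0.52 with voom. Trabd rose (0.24 ± 0.08) and Tubgcp6 (-0.40 ± 0.14) and Ppp6r2 (-0.28 ± 0.10) fell (adjusted p of 0.0227, 0.0379 and 0.0355 by edgeR), 3 genes named after their values were seen. The 8 other genes lay between -0.40 and 0.68 on the log2 scale, all below Mapk11. Around the other members, Gdpd3, the gene beyond Mapk3, fell (-0.99 ± 0.33, adjusted p = 0.033 by edgeR) but lost its call in 7 of 20 alternatives, those without fibrosis 1, 2 or 5, control 2, 3 or 4, or fibrosis 4 and 5 together.

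**Figure D3:**
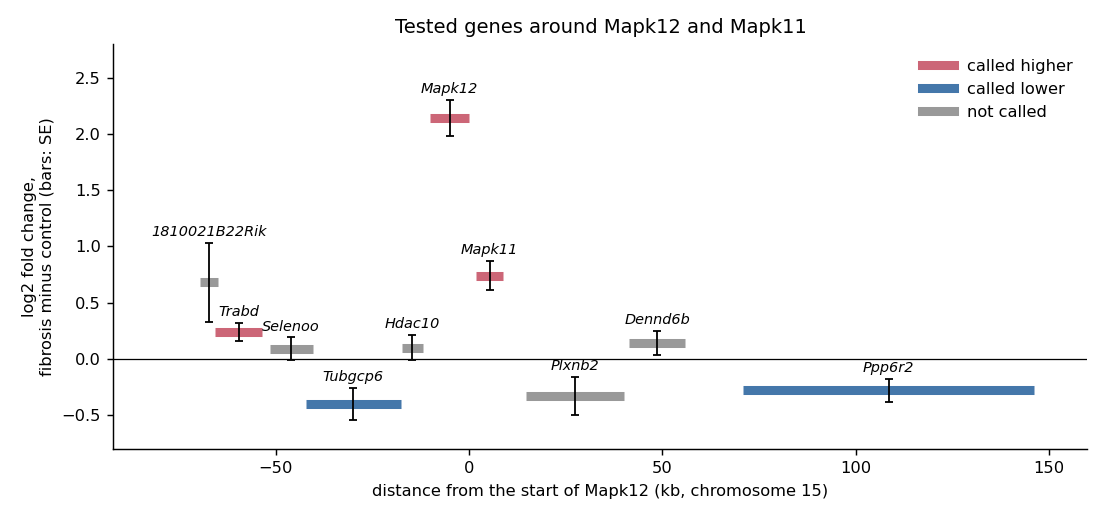
Log2 fold change (fibrosis minus control, bars are SE) of the 10 tested genes near Mapk12, drawn over each gene's span by distance in kb from the start of Mapk12. Mapk12 (2.14) and the adjoining Mapk11 (0.74) stand above Hdac10 (0.10) and Plxnb2 (-0.33) on either side.

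The genes whose profile over the 10 libraries was most like that of Mapk12 were Sept3, a septin, Cacnb3, a subunit of voltage-gated calcium channels, Itgae, the integrin chain CD103, Synpo2, an actin-binding protein, and Fgfr1, a fibroblast growth factor receptor. Likeness was the root mean square difference of log2 CPM, each gene set to 0 at its control mean, among 10008 protein-coding genes with at least 5 CPM on average. It was 0.342 for Sept3, 0.364 for Cacnb3, 0.407 for Itgae, 0.419 for Synpo2 and 0.426 for Fgfr1. The difference between the groups enters this measure, so a like gene need not follow Mapk12 within a group. Within fibrosis, Sept3 was highest in library 3 and lowest in library 2, as Mapk12 was. The other genes named were highest in fibrosis 5. Cacnb3 ran from 28.1 to 51.3 CPM in fibrosis and from 9.08 to 12.4 CPM in control, and Itgae from 19.8 to 37.9 and from 5.85 to 10.2 CPM. Closest to Mapk11 were Pglyrp2 (0.0981), Satb1 (0.106), Phf1 (0.117), Rnf144a (0.117) and Scml4 (0.122). Of these, Satb1, a chromatin organiser, ran from 99.6 to 147 CPM in fibrosis and from 66.1 to 98.7 CPM in control.

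The profile of Mapk13 was set beside the others after its values had been seen. Its nearest genes were Mmp8 (0.197), a neutrophil collagenase, Ifitm6 (0.2), Hp (0.228), which encodes haptoglobin, Dmxl2 (0.234) and Cd33 (0.236), a myeloid lectin. The order of Mapk13 in the fibrosis libraries (5, 4, 1, 2, 3 from high to low) was also that of the summed neutrophil markers, at 4757, 3843, 1609, 777 and 442 CPM (0 of 12 such markers called by edgeR). The macrophage sum ran in that same order (4447, 3982, 1487, 1347 and 1237 CPM), as did the dendritic cell sum (908, 827, 627, 574 and 541 CPM). In control, Mapk13 was highest in libraries 2 and 4, as were the neutrophil markers (1887 and 1536 CPM). So were the macrophage (2940 and 2800 CPM) and dendritic cell markers (650 and 666 CPM). The part of these cells in the level of Mapk13 was not tested.

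Among markers of other cells, the platelet sum separated the groups, as Mapk12 and Mapk11 did. The sums of T cell, NK cell and dendritic cell markers overlapped. All 11 tested platelet markers were higher in fibrosis, and their summed level was 365, 465, 880, 1401 and 1471 CPM in fibrosis libraries 1 to 5 and 216 to 270 CPM in control. Mapk12 in the same fibrosis libraries was at 12.6, 11.0, 15.6, 11.4 and 11.5 CPM, against 2.15 to 3.35 CPM in control. T cell markers (3 of 12 higher, 1 without fibrosis 4 and 5) summed to 93.2 to 193 CPM in fibrosis and 81.8 to 117 CPM in control, NK cell markers (4 of 9 higher; 3 higher and 1 lower without fibrosis 4 and 5) to 85.1 to 177 and 74.5 to 126 CPM, and dendritic cell markers (5 of 11 higher; 5 higher and 1 lower without fibrosis 4 and 5) to 541 to 908 and 495 to 666 CPM. Fibrosis 3, with the most Mapk12, had 93.2 CPM of T cell and 541 CPM of dendritic cell markers, both within the control range. Its platelet sum of 880 CPM lay above the control range.

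Skeletal muscle markers, given because p38 gamma is abundant there, summed to 6.04 to 10.1 CPM in fibrosis and 10.4 to 13 CPM in control. Of the 8, only 3 were tested, with 2 lower (1 without fibrosis 4 and 5), and 2 were at 0 in every library. Erythroid markers (10 of 15 lower, 14 without fibrosis 4 and 5) summed to 974 to 7839 CPM in fibrosis and 3773 to 6091 CPM in control, and proliferation markers (15 of 15 lower) to 1090 to 1652 and 2938 to 3790 CPM. B cell markers (5 of 12 higher, 11 of 12 without fibrosis 4 and 5) summed to 12245 to 18141 and 13045 to 14730 CPM. Plasma cell markers (1 of 6 higher, 1 lower; 1 of 7 higher and 0 lower without fibrosis 4 and 5) summed to 483 to 727 and 450 to 623 CPM, macrophage markers (1 of 14 higher, but 0 higher and 10 lower without fibrosis 4 and 5) to 1237 to 4447 and 1666 to 2940 CPM, and endothelial and stromal markers (1 of 4 higher) to 186 to 266 and 160 to 192 CPM. The B cell sum was highest in fibrosis 1 to 3, the libraries with the most Mapk11. In bulk RNA, fewer cells of a type and less RNA per cell cannot be told apart, and the part of these cell types in the levels of Mapk12 and Mapk11 was not tested.

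**Figure D4:**
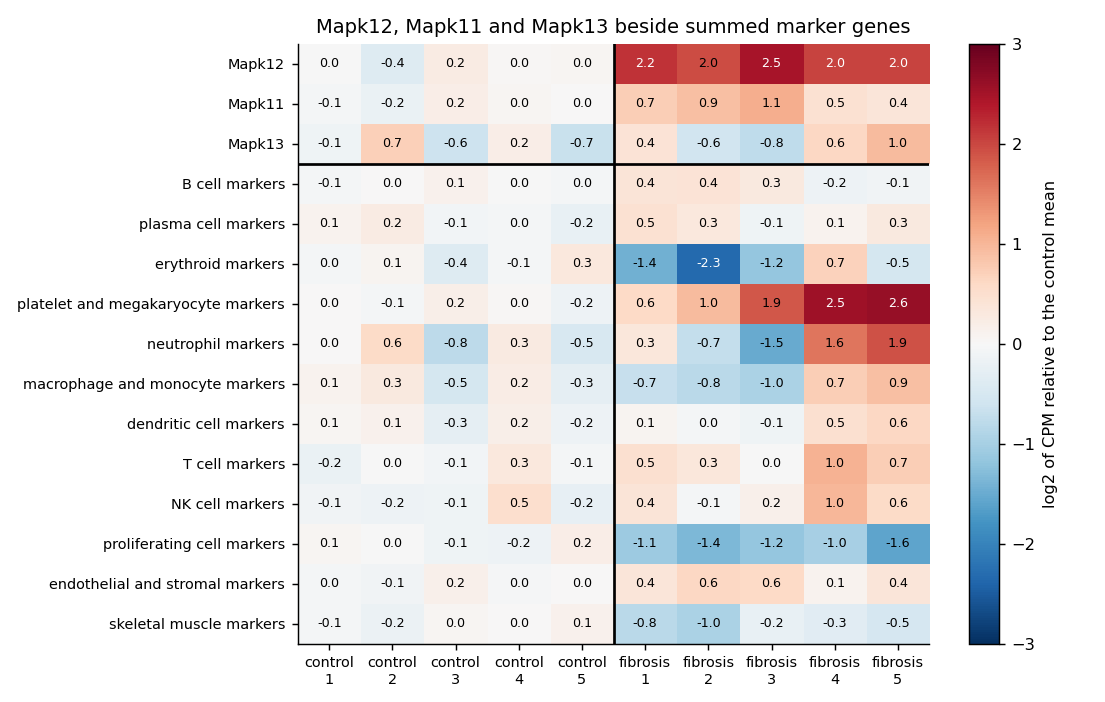
Mapk12, Mapk11 and Mapk13 (upper rows) and summed marker genes of 12 cell types (lower rows) in each library, as log2 of CPM relative to the control mean. Mapk12 is 1.96 to 2.47 above the control mean in every fibrosis library, and the platelet sum is 0.60 to 2.61 above it. In the fibrosis libraries Mapk13 has the order of the neutrophil, macrophage and dendritic cell rows.

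The rest of the MAP kinase machinery was read from 9 lists with 115 genes, of which 106 were tested. Of these, 18 were higher and 21 lower. That is 36.8% called, beside 35.7% of all tested genes, and their median log2 fold change was 0.00, beside 0.05. Not all of the other MAP kinases are reported here. Of those that are, Nlk had 0.22 ± 0.09 and Mapk6 -0.01 ± 0.13, and neither passed the threshold. Mapk4, Mapk10 and Mapk15 were too low to test, with at most 8 counts in any library.

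Of the 7 MAP kinase kinases, which act directly on the members, 1 was higher and 1 lower (median log2 -0.09; 2 and 1 without fibrosis 4 and 5). Map2k3, an activator of p38, fell from a mean of 109 ± 9.91 to 79.6 ± 7.66 CPM (log2 fold change -0.46 ± 0.09, adjusted p = 0.00209 by edgeR). Its levels were 88.1, 78.1, 67.7, 83.9 and 80.2 CPM in fibrosis libraries 1 to 5 and 93.6 to 121 CPM in control, with no overlap. Map2k6, the other dedicated p38 activator, had 0.02 ± 0.14. Per length, control libraries held 32.9 ± 3.19 FPKM of Map2k3 and 2.81 ± 0.348 FPKM of Map2k6. Map2k1, which activates ERK, rose from a mean of 135 ± 4.39 to 177 ± 19.9 CPM (log2 fold change 0.40 ± 0.09, adjusted p = 0.00357 by edgeR), again with no overlap. Map2k2 (-0.20 ± 0.10), Map2k4 (-0.15 ± 0.08), Map2k5 (0.12 ± 0.09) and Map2k7 (-0.09 ± 0.08) were not called. Map2k5 was called without fibrosis 4 and 5 (0.23 ± 0.08, adjusted p = 0.0439 by edgeR), Map2k2 without fibrosis 1 (-0.27 ± 0.09, adjusted p = 0.0283 by edgeR) and with library size only (-0.31 ± 0.09), and Map2k4 with library size only (-0.26 ± 0.09).

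Higher in the relays, 5 of 21 MAP3 kinases were higher and 3 lower (median 0.15). The 5 became 9 without fibrosis 4 and 5, and 3 when any one of fibrosis 1, 2, 3 or control 2, 4, 5 was left out. Map3k8 (Tpl2), which feeds ERK in inflammatory signalling, rose from 22.1 ± 0.849 to 32.2 ± 5.24 CPM (0.55 ± 0.11), and Taok1, a kinase above p38 and JNK, rose with overlapping groups (0.55 ± 0.13). Map3k20 (ZAK), a ribosome stress kinase above JNK and p38, fell (-0.77 ± 0.14), as did Map3k13 (-1.50 ± 0.39), from 1.21 to 0.414 CPM. Their adjusted p-values by edgeR lay between 0.000909 and 0.00832.

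Of 19 scaffolds and adaptors, 3 were higher and 2 lower (median 0.06; 4 and 5 without fibrosis 4 and 5). Tab1, which binds p38 alpha and the kinase TAK1, fell from a mean of 51.6 ± 1.54 to 30.6 ± 2.81 CPM (log2 fold change -0.75 ± 0.08, adjusted p = 3.85e-05 by edgeR), with fibrosis libraries at 32.0, 28.8, 34.7, 29.8 and 27.6 CPM and controls at 49.4 to 53.5 CPM. Arrb1, which encodes beta-arrestin 1, fell from 286 ± 26.7 to 142 ± 12.8 CPM (-1.01 ± 0.09). Gadd45b, a stress-induced partner of the MAP3 kinase Map3k4, rose (0.78 ± 0.13), and the JNK scaffold Mapk8ip1 rose at a low level, from 0.625 to 1.45 CPM (1.21 ± 0.26).

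Of 11 phosphatases that switch MAP kinases off, 5 were lower and 1 higher (median -0.36; 2 higher without fibrosis 4 and 5 or without fibrosis 4 alone). Over all tested genes, 17.2% were lower and 18.6% higher. Dusp10, which acts on JNK and p38, fell (-0.82 ± 0.13), as did Dusp8 (-1.91 ± 0.37) and Dusp6 (-0.62 ± 0.13), an ERK phosphatase. Dusp16, which acts mainly on JNK, rose from 19.4 ± 2.38 to 38.8 ± 6.43 CPM (1.00 ± 0.13). Its libraries ran from 30.5 to 45 CPM in fibrosis and from 17.0 to 22.4 CPM in control. Adjusted p-values of these 4 by edgeR lay between 9.55e-05 and 0.00248.

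Below the members, 2 of 10 MAP kinase-activated kinases were higher and 2 lower (median 0.06). Rps6ka5 (MSK1), a kinase that ERK and p38 activate, rose from 16.9 ± 2.19 to 28.0 ± 4.22 CPM (0.73 ± 0.13), and Rps6ka3 (RSK2) rose (0.48 ± 0.09). The decreases of Rps6ka1 (-0.35 ± 0.12, adjusted p = 0.0379 by edgeR) and Mknk1 (-0.18 ± 0.06, adjusted p = 0.0412) lost their calls in 9 and 11 of 20 alternatives. Both lost them without fibrosis 4 and 5, and when any one of fibrosis 2, 4, 5 or control 1, 2, 4, 5 was left out.

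Among transcription factor substrates, 6 of 17 were higher and none (0) lower (median 0.10), beside 18.6% of all tested genes higher. The fit without fibrosis 4 and 5 called 7 higher and 0 lower. The fit with the replicate number as a block called 1 lower. Mef2c, a p38 substrate that B cells need for their response to antigen, rose from 134 ± 22.6 to 241 ± 58.2 CPM (0.85 ± 0.16). Creb1 rose by 0.51 ± 0.10, Elk4 by 0.47 ± 0.12 and Elk3 by 0.38 ± 0.08, with adjusted p-values by edgeR between 0.00131 and 0.00767.

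Of 12 ERK response and feedback genes, 5 were lower and none (0) higher (median -0.41), and 7 were not called. Over all tested genes, 17.2% were lower. Without fibrosis 4 and 5 the list had 6 lower, and its median was -0.50. Egr1, an immediate early gene, fell from 51.7 ± 5.26 to 31.5 ± 7.35 CPM (-0.71 ± 0.15). It was lowest in fibrosis 4 and 5, at 23.7 and 23.6 CPM. The feedback inhibitors Spred2 (-0.77 ± 0.13), Spry4 (-1.55 ± 0.31) and Spry1 (-1.29 ± 0.32) fell too, the Sprouty genes from control means of only 1.71 and 1.34 CPM. Adjusted p-values of these 4 by edgeR lay between 0.00048 and 0.00735.

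Of 6 substrates and binding partners of p38 gamma and delta, 2 were lower and none (0) higher (median -0.22, or -0.50 without fibrosis 4 and 5). Eef2k, the kinase of elongation factor 2, fell from 81.5 ± 10 to 43.7 ± 5.64 CPM (-0.90 ± 0.11), and Stmn1, the microtubule regulator stathmin, which is also abundant in dividing cells, fell from 216 ± 20.2 to 106 ± 25.7 CPM (-1.03 ± 0.14). Their adjusted p-values by edgeR were 7.4e-05 and 0.000164. The proliferation markers given above were lower too, and their part in the fall of Stmn1 was not tested. Among partners with PDZ domains, which bind the tail of p38 gamma, those named were not called: Dlg1 had 0.16 ± 0.11, Sntb1 -0.59 ± 0.26 and Ptpn3, a tyrosine phosphatase, 0.33 ± 0.18. Sntb1 was called lower without control 3 (-0.72 ± 0.26, adjusted p = 0.0498 by edgeR) and with library size only (-0.70 ± 0.26).

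**Figure D5:**
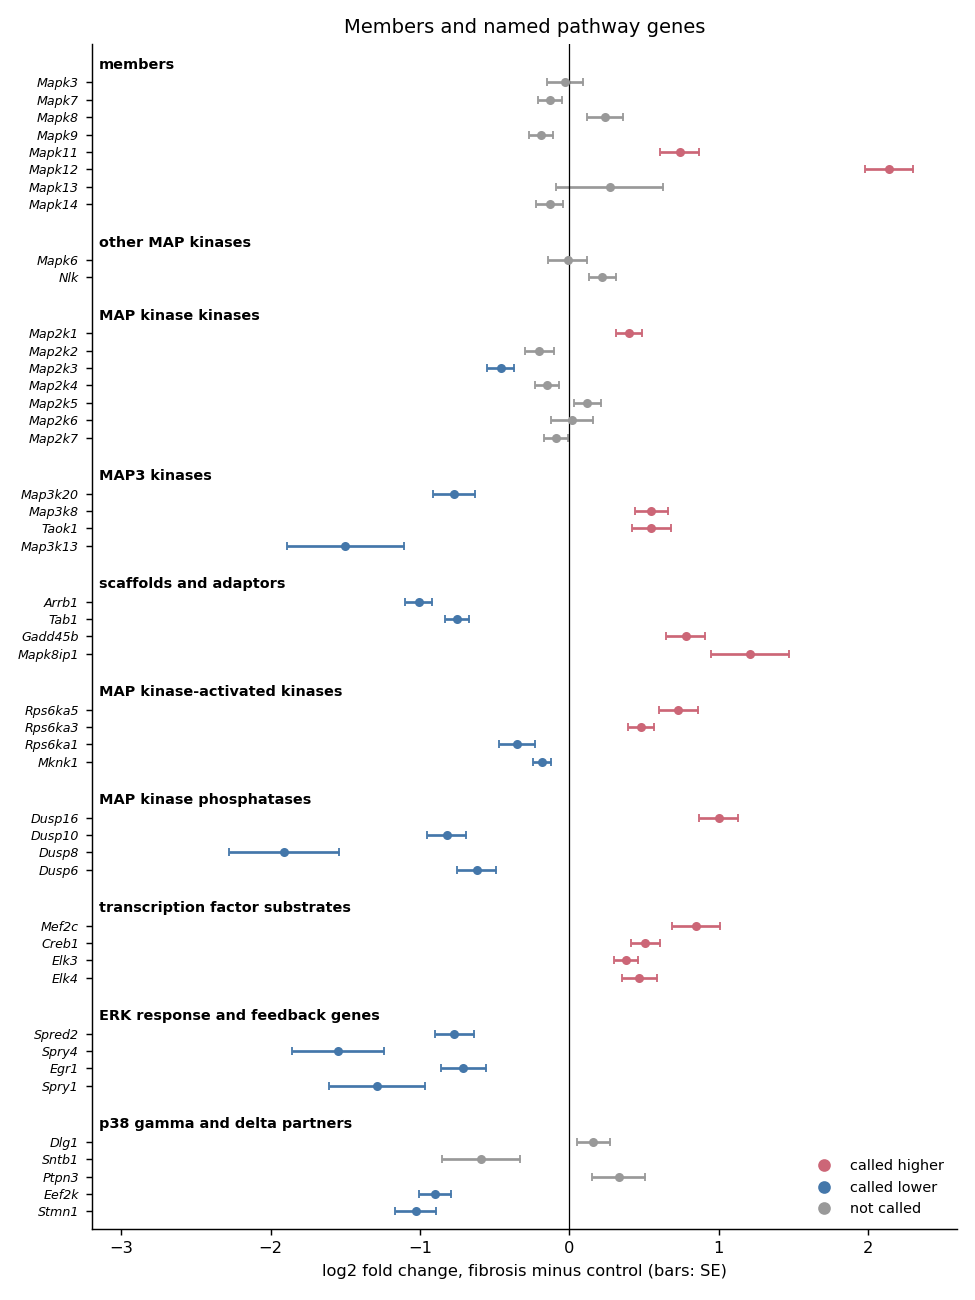
Log2 fold change (fibrosis minus control, bars are SE) of the members and of the named genes of 9 pathway lists, coloured by call. Mapk12 (2.14) lies furthest to the right, and the ERK response genes shown (-0.71 to -1.55) all lie to the left of 0.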

How the data were processed

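Poly-A RNA of splenic B cells was sequenced in 5 fibrosis and 5 control libraries. The authors deposited 1 table of raw read counts by gene and 1 of FPKM, which from the values are counts per listed exon length and library total times a factor per library of 0.935 to 1.07. GRCm38 (mm10) is named in the submitters' processing notes. For the aligner, the counter and the use of strand: not given in the sources used here. Mapk7 shares 89 exon bases with Mfap4 on the other strand.

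The counts went into edgeR 4.0.16 under R 4.3.3. Its filterByExpr defaults left 14283 genes holding 99.9% of counts. It scaled libraries by TMM and compared groups by the quasi-likelihood test with robust dispersion, no covariate and Benjamini-Hochberg adjustment over all tested genes. Genes were called at an adjusted p under 0.05. Standard errors were obtained by dividing the size of the log2 fold change by √F. The code was tested on simulated data. Every gene was looked up by symbol, using the entry with the highest total. Depth was 13439100 to 17954551 counts per library, so that values near 1 CPM rest on few counts.

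The members and all gene lists were chosen with earlier results of these data known. Named genes are all members, all genes of lists with up to 7 genes, the 4 with the smallest p in longer lists, neighbouring genes, and for called members the 5 most similar profiles; the profile of Mapk13 was added after its values were seen. Not every called gene is therefore named, and some genes that the rule takes are counted in their lists but not reported here.

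Alternatives were RLE scaling, library size only, no filter, at least 1 CPM in 5 libraries, DESeq2 1.42.0, limma 3.58.1 (voom with quality weights, and log2 of FPKM plus 1 or plus 0.1), a replicate block, and every fit with 1 library left out. Added after the data were seen were the fit without fibrosis libraries 4 and 5 and the length of protein-coding transcripts. Promoters came from RefSeq (GRCm38.p6), with entries for 7 of the 8 members, and loops from GENCODE vM21, whose coordinates equal those of 98.0% of the table's genes.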

Additional observations from a re-analysis of the deposited data

Results flagged for a closer look

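Among the 92 groups of 5 libraries examined for members and named genes, 4 held a library set apart relative to the range of its group. Chance gives about 1 in 20, so 4 of 92 is not more than chance gives. Map2k5, the activator of ERK5, was at 28.9 CPM in control 2 against 27.0 CPM in the next library. Map3k20 was at 23.4 CPM in control 5 against 17.9 CPM, and Dusp8 at 15.4 CPM in the same library against 8.88 CPM. Mef2c was at 173 CPM in control 3 against 130 CPM. No member had such a library in either group.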

How the results depend on the processing

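Mapk12 and Mapk11 kept their calls in all 20 alternatives, with log2 fold changes of 1.27 (FPKM plus 1) to 2.22 for Mapk12 and 0.62 to 0.93 for Mapk11. The number of members called lower, 0 in the report, was 2 with library size only and 0 to 1 when 1 library was left out. Library size only moved the median of all genes by -0.11 and made 1777 genes higher and 3306 lower, against 2654 and 2451 with TMM. Lengths of protein-coding transcripts moved the share of Mapk12 to 7.61% in fibrosis and 1.98% in control, that of Mapk14 to 75.4% in control, those of Mapk8 to 22.3% and 17.7%, and those of Mapk9 to 77.7% and 82.3%. They moved levels in fibrosis and control to 12.6 and 14.0 FPKM for Mapk7, 3.31 and 2.85 for Mapk8, 11.5 and 13.3 for Mapk9, 6.76 and 1.55 for Mapk12, and to 16.5 for Mapk11 in control, so that Mapk13 (1.22) became the lowest in control.

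Directions turned only for uncalled genes. Leaving out 1 library gave -0.10 to 0.03 for Mapk3, -0.14 to 0.04 for Mapk6, -0.03 to 0.08 for Map2k6 and -0.09 to 0.27 for Ifitm6. Map2k6 was -0.08 with library size only, -0.03 without a filter and 0.00 with FPKM, and Hdac10 was 0.00 with library size only. With voom, Mapk13 was -0.21, Mmp8 -0.11, Ifitm6 -0.32, Hp -0.17 and Dmxl2 -0.03. Without fibrosis 4 and 5 they were -0.21, -0.14, -0.38, -0.15 and -0.10, and Cd33 was -0.08. The cause was not tested.

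Same-numbered libraries deviated together in numbers 1, 3 and 4 only (correlations of 0.109, 0.419 and 0.254, against -0.127 and -0.248 for 2 and 5). Of the 5 fibrosis libraries, 3 matched the control library of their own number best. Whether the numbers pair the libraries was not tested. The replicate block gave 2677 higher and 2534 lower genes, 19 higher and 21 lower pathway genes, and the same 2 members higher. Depth limits Mapk12 in control (39 to 63 counts per library) and Mapk13 (35 to 107).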
